A study of Rattus norvegicus with 9 samples.

Results

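The liver makes most of the proteins that clot blood and most of those that hold clotting and clot removal in check, and 37 genes of this system were followed in liver RNA of rats given follicle-stimulating hormone (FSH) or vehicle. They were taken by gene symbol from a list of coagulation and fibrinolysis factors, and all 37 were present among the 24496 genes of the count table. Of these, 34 passed a filter on low counts and were tested, while F13a1, Serpina10 and A2m were too low to test. All animals were female Wistar rats put on a western diet at 10 weeks of age and ovariectomised 6 weeks later. All were then given degarelix, which blocks the receptor for gonadotropin-releasing hormone and so lowers the pituitary's own output of FSH and luteinising hormone. Implanted osmotic pumps released FSH (6 µg per kg daily) in 4 of them and vehicle alone in the other 5. After 12 days on restricted food and 7 days of free feeding, the rats were fasted for 4 h and killed at an age of 19 weeks. Each library came from 1 animal, and totals lay between 23430807 and 27008941 counts in FSH livers and between 19295580 and 28672439 counts in vehicle livers. The hepatocyte product Alb took 10.5 to 19.4% of the counts of FSH livers and 13.7 to 16.7% of those of vehicle livers.

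In clotting, tissue factor and factor VII, or the contact proteins factor XII, plasma prekallikrein and kininogen, start a chain of proteases that ends in thrombin, which cuts fibrinogen into fibrin. Antithrombin, the protein C system and tissue factor pathway inhibitor restrain that chain, and plasmin dissolves the clot. Several of the proteases carry carboxylated glutamates that need vitamin K. In the rat, fibrinogen and some kininogens are known as acute phase proteins, which hepatocytes make in larger amounts during inflammation.

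No member passed a false discovery rate of 0.05 in edgeR's quasi-likelihood test with Benjamini-Hochberg adjustment over 11924 genes, where 4 genes, 0.0335% of those tested, passed in all. The DESeq2 Wald test called 2 members, Klkb1 and F7, both higher with FSH, and 1.64% of the 11222 genes to which it gave an adjusted p. At an unadjusted edgeR p under 0.05 there were 8 members, all higher with FSH and none lower: Fga, Fgb, Fgg, F5, F7, Klkb1, Kng1 and Serpinc1. Over all genes, 6.42% lay below that p with a higher value and 5.14% with a lower value. Of the 34 tested members, 23 had a fold change above 0, against 50.5% of all genes tested, and the median log2 fold change was 0.07, against 0.00 over all genes. Of the 8 genes, 3 were fibrinogen chains and 2 belonged to the contact system, while the vitamin K cycle, the protein C system with the tissue factor pathway inhibitors, and the plasmin system held 0 of them.

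**Figure D1:**
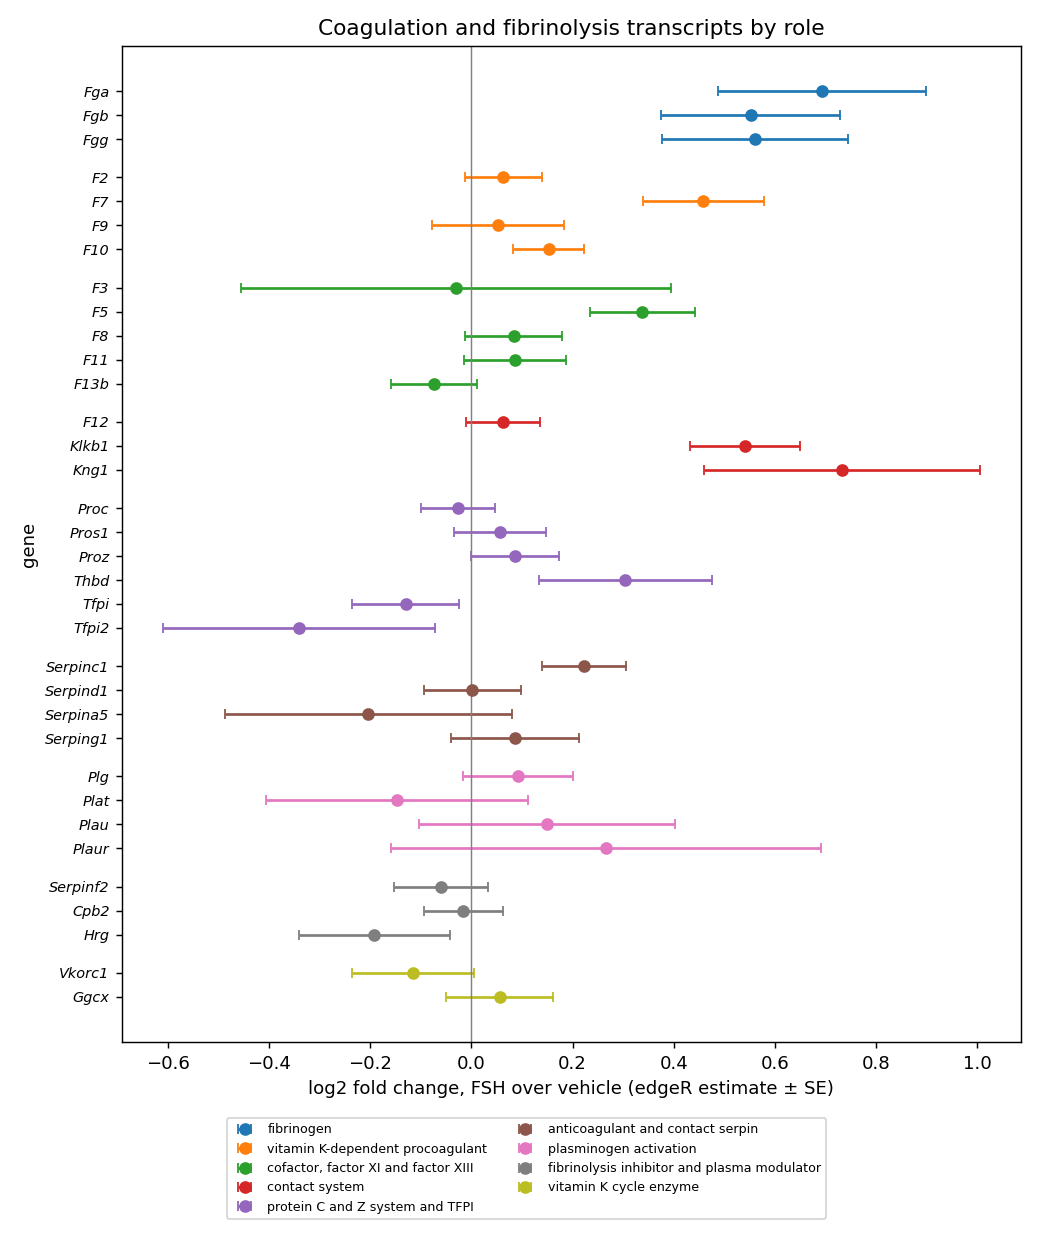
Log2 fold change of FSH over vehicle (horizontal axis) for the 34 tested genes, one row per gene, coloured by role; points are edgeR estimates and bars 1 SE, from 4 FSH and 5 vehicle livers. The 3 fibrinogen chains, Klkb1 and Kng1 lie furthest to the right, between 0.54 and 0.73, and Tfpi2 furthest to the left at −0.34.

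Fga, Fgb and Fgg encode the Aα, Bβ and γ chains of fibrinogen, and in the RefSeq gene order of the assembly GRCr8 they are direct neighbours on chromosome 2. Because these 3 genes had similar differences, and Kng1, Klkb1 and F7 were the other members furthest above 0, the 250 bases before the transcription start of each are shown from RefSeq (GRCr8). Of the 37 members, 27 had an entry there; A2m, Cpb2, F3, F8, Hrg, Plat, Serpina10, Serpind1, Serping1 and Thbd did not. Capitals mark 3 motifs known from liver promoters, searched on both strands: GTTAAT (or ATTAAC on the other strand), part of the site of the factor HNF1; TTGCAA, which the C/EBP factors can bind; and CTGGGAA (or TTCCCAG), an element of promoters that respond to interleukin-6.
Fga, chr2:170671919-170672168, plus strand: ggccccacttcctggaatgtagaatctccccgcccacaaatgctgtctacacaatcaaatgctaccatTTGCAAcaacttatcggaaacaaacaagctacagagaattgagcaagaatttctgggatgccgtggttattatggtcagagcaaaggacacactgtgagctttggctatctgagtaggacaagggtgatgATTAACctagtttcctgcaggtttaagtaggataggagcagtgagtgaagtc
Fgb, chr2:170700876-170701125, minus strand: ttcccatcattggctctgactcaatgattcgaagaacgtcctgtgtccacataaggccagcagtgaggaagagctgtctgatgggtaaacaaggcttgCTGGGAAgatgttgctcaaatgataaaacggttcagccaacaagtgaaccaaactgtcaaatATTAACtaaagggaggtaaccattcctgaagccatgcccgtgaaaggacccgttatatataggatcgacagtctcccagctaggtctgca
Fgg, chr2:170652833-170653082, plus strand: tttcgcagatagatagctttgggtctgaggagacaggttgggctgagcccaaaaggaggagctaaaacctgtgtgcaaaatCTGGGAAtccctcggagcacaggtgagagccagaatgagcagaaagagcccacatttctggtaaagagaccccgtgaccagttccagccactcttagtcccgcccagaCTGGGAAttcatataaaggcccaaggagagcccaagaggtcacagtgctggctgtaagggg
Kng1, chr11:91340149-91340398, minus strand: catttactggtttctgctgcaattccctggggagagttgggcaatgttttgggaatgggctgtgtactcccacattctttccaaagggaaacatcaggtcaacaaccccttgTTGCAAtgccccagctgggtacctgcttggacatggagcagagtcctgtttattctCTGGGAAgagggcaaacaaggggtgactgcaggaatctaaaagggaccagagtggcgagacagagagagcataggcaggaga
Klkb1, chr16:53690976-53691225, plus strand: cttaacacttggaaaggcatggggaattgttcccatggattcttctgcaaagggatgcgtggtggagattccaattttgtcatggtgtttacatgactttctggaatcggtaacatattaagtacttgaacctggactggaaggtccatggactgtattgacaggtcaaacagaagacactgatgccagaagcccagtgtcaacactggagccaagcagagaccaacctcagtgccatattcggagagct
F7, chr16:83202739-83202988, minus strand: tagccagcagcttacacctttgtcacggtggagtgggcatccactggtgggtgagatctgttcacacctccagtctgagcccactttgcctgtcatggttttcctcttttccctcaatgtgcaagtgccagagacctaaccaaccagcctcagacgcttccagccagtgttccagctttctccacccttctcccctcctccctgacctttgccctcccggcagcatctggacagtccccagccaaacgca
Fga has 2 listed starts, of which the upstream one is used here. The HNF1 letters stood in the promoters of Fga and Fgb, TTGCAA in that of Fga, and CTGGGAA in those of Fgb, once, and Fgg, at 2 places. A further TTGCAA in Fgg lies 39 bases past the start. Kng1 holds TTGCAA and CTGGGAA, and none of these letters are in the windows of Klkb1 and F7. Over the whole windows of 250 bases before to 50 after the start, GTTAAT was found in 7 of the 27 member genes and in 7.45% of all 33469 promoters of the table. TTGCAA was found in 4 members and 5.87% of all, and CTGGGAA in 8 members and 11.3% of all. A member gene was counted if any of its listed promoters matched, while the shares of all count each promoter singly, so the units differ. A match describes the letters only and does not show binding.

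All 3 fibrinogen chains had higher mean levels with FSH, by a similar factor. Levels are given in CPM, counts per 1e+06 counts of the library after scaling between libraries; they are not divided by transcript length, so levels of different genes are not ranked. Fga stood at 3927, 7830.4, 7208 and 6649 CPM in FSH livers 1 to 4, against 3403, 3004, 4839, 4115 and 4446 CPM in vehicle livers 1 to 5. Fgb stood at 4527, 7504, 7009 and 6688 CPM in FSH livers, against 3784, 3439, 5339, 4238 and 5137 CPM in vehicle livers. Fgg stood at 3569, 6223, 5877 and 5441 CPM in FSH livers, against 2994, 2786, 4195, 3845 and 4072 CPM in vehicle livers. For each chain FSH livers 2, 3 and 4 lay above all 5 vehicle livers, and FSH liver 1 lay among the vehicle livers, so the groups overlapped. The log2 fold change was 0.69 for Fga (SE 0.21, adjusted p = 0.278 in edgeR), 0.55 for Fgb (SE 0.18, adjusted p = 0.312 in edgeR) and 0.56 for Fgg (SE 0.18, adjusted p = 0.319 in edgeR). Without FSH replicate 1 the values were highest, at 0.87, 0.69 and 0.71, with no call gained. Without FSH replicate 2 they were lowest, at 0.58, 0.47 and 0.47.

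Within each group the 3 chains ordered the animals alike: FSH liver 2 was highest, then 3, 4 and 1, and vehicle liver 3 was highest, then 5, 4, 1 and 2. Together the chains took 1.12, 2.19, 2.09 and 1.85% of all counts in FSH livers 1 to 4, against 0.983, 0.981, 1.42, 1.27 and 1.33% in vehicle livers 1 to 5. That is 34.6 to 48.2% of the counts of all 37 genes in FSH livers and 31.5 to 38.3% in vehicle livers. Fga made up 32.7, 36.3, 35.9 and 35.4% of the fibrinogen counts in FSH livers 1 to 4, against 32.5 to 33.7% in vehicle livers. FSH livers 2 to 4 were thus above all vehicle livers in this share. Fgb made up 34.8 to 37.7% in FSH livers and 34.7 to 37.6% in vehicle livers. For Fgg the share was 28.9 to 29.7% in FSH livers and 29.2 to 31.5% in vehicle livers. FSH liver 1, the lowest in fibrinogen of its group, also had the largest share of Alb, 19.4% of its counts. Whether that share bears on its fibrinogen was not tested. In bulk tissue fewer cells of a type and less RNA per cell cannot be told apart; of 8 hepatocyte markers, 2 had a fold change above 0 and the median was −0.08, with a summed level of 170395 to 279909 CPM in FSH livers and 196760 to 241862 CPM in vehicle livers.

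**Figure D2:**
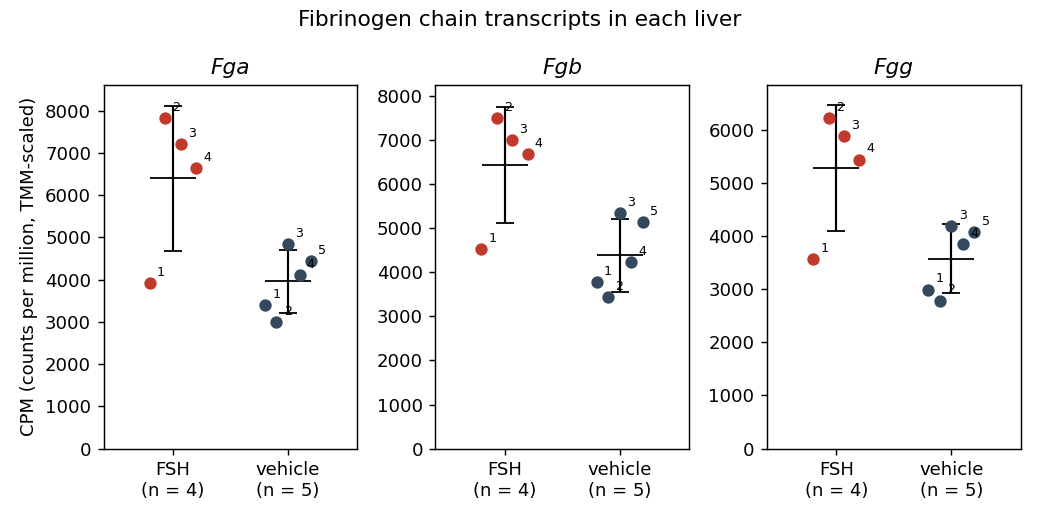
CPM (vertical axis) of Fga, Fgb and Fgg in each of 4 FSH and 5 vehicle livers; points are animals with their replicate number, and bars show the mean and SD. FSH livers 2 to 4 sit above the vehicle livers in each panel, while FSH liver 1 sits among them.

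The vitamin K-dependent proteases differed among themselves. F7, which encodes factor VII, the partner of tissue factor, stood at 178, 136, 139.6 and 132 CPM in FSH livers 1 to 4, against 95.9, 116, 127, 95.03 and 98.4 CPM in vehicle livers 1 to 5. Each FSH liver was above each vehicle liver, and FSH liver 1, low in fibrinogen, was the highest. The log2 fold change was 0.46 (SE 0.12, adjusted p = 0.225 in edgeR). F10, which encodes factor X, stood at 681, 618, 631 and 651 CPM in FSH livers, against 614, 557, 599.9, 558 and 574 CPM in vehicle livers. Its groups did not overlap either, although the lowest FSH liver was close to the highest vehicle liver, and the log2 fold change was 0.15 (SE 0.07, adjusted p = 0.445 in edgeR). F2, which encodes prothrombin, was the steadiest of the tested members among vehicle livers, with a coefficient of variation of 3.22%, and averaged 3222 ± 99.7 CPM with FSH (SD, n = 4) and 3083 ± 99.3 CPM with vehicle (SD, n = 5). Its log2 fold change was 0.06 (SE 0.08). F9, which encodes factor IX, had 0.05 (SE 0.13), with 583 to 731 CPM in FSH livers and 510.2 to 732 CPM in vehicle livers, ranges that overlap almost wholly.

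F7, F10 and Proz are direct neighbours on chromosome 16 in the same RefSeq order, with log2 fold changes of 0.46, 0.15 and 0.09. The 2 enzymes that serve these proteases, Ggcx, the carboxylase, and Vkorc1, which recycles vitamin K, had log2 fold changes of 0.06 (SE 0.11) and −0.11 (SE 0.12). Ggcx lay between 85.7 and 114 CPM in FSH livers and between 85.4 and 113 CPM in vehicle livers, and Vkorc1 between 149 and 211 CPM in FSH livers and between 180.03 and 236 CPM in vehicle livers.

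Among the cofactors and later factors, F5 was the only gene at an unadjusted p under 0.05. It encodes factor V, the cofactor with which factor X makes thrombin, and stood at 195, 197, 202 and 157 CPM in FSH livers 1 to 4, against 154, 170.1, 154, 129.9 and 136 CPM in vehicle livers 1 to 5. FSH livers 1 to 3 were above all vehicle livers, and FSH liver 4 was below vehicle liver 2. The log2 fold change was 0.34 (SE 0.10, adjusted p = 0.292 in edgeR). F8, which encodes factor VIII and in liver is chiefly a product of endothelial cells, had 0.08 (SE 0.10), at 9.89 to 11.04 CPM in FSH livers and 8.25 to 10.9 CPM in vehicle livers. F11, which encodes factor XI, had 0.09 (SE 0.10), and its FSH livers were close together, at 175 to 182 CPM, within the vehicle range of 138 to 195 CPM. F13b, which encodes the carrier subunit of factor XIII, had −0.07 (SE 0.08), while F13a1, the catalytic subunit and a product of macrophages and platelets, was at or below 0.434 CPM in all 9 livers and was not tested. F3, which encodes tissue factor, was near 1 CPM, at 0.834 to 1.54 CPM in FSH livers and 0.53 to 1.80 CPM in vehicle livers, and its log2 fold change of −0.03 (SE 0.42) allows no statement of direction.

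In the contact system the 3 genes differed widely. Klkb1, which encodes plasma prekallikrein, had the smallest p of all members. It stood at 385, 478, 502 and 459 CPM in FSH livers 1 to 4, against 282, 317, 376, 286 and 307 CPM in vehicle livers 1 to 5. The groups did not overlap, with FSH liver 1 next to the highest vehicle liver. The log2 fold change was 0.54 (SE 0.11, adjusted p = 0.175 in edgeR and 0.00183 in DESeq2), and it ranged from 0.49 to 0.61 when each animal was left out in turn. F11, the direct neighbour of Klkb1 on chromosome 16 and its close relative in sequence, had 0.09.

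Kng1, which encodes kininogen, the source of bradykinin, stood at 2031, 2147, 5222 and 2059 CPM in FSH livers 1 to 4, against 1681, 1477, 2027, 1751 and 1687 CPM in vehicle livers 1 to 5. FSH liver 3 was far above all others, and FSH liver 1 exceeded vehicle liver 3 by little. The log2 fold change was 0.73 (SE 0.27, adjusted p = 0.363 in edgeR). Its size depended on FSH replicate 3, since it was 0.27 without that animal (SE 0.11, adjusted p = 0.534 in edgeR). The RefSeq table lists Kng2 and Kng2l1 beside Kng1. Kng2 had no entry under that symbol in the count table, and Kng2l1 was not analysed here. The count of Kng1 is uncertain where reads of these relatives were assigned to it. F12, which encodes factor XII, the protease that starts the contact pathway, had 0.06 (SE 0.07), with 1053 to 1159 CPM in FSH livers and 1010.5 to 1116 CPM in vehicle livers. Hrg, which encodes histidine-rich glycoprotein and lies close to Kng1 on chromosome 11, had −0.19 (SE 0.15), at 814 to 1201 CPM in FSH livers and 898 to 1379 CPM in vehicle livers.

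**Figure D3:**
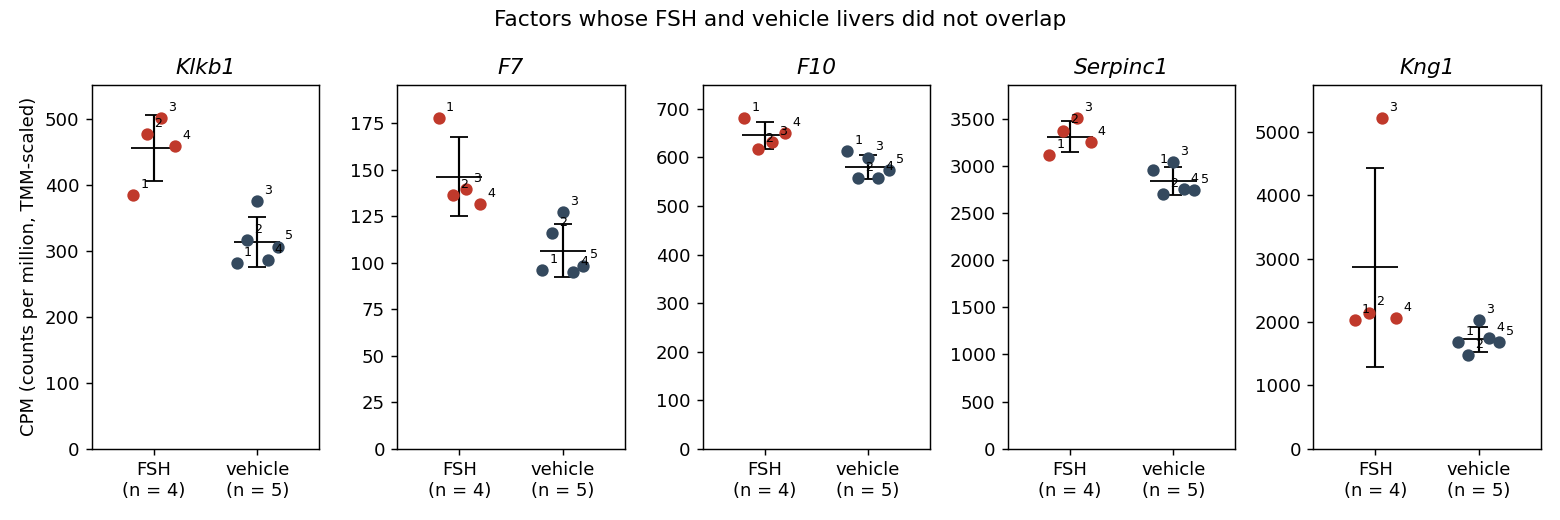
CPM (vertical axis, from 0) of the 5 members in which every FSH liver exceeded every vehicle liver; points are animals with their replicate number, and bars show the mean and SD. In each panel the lowest FSH liver lies close to the highest vehicle liver, and in Kng1 FSH liver 3 stands at 5222 CPM, apart from the rest.

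In all, 5 members had every FSH liver above every vehicle liver, namely Klkb1, F7, F10, Serpinc1 and Kng1, and 0 had every FSH liver below. Over all tested genes 2.19% had all FSH livers above and 1.92% had all below. Serpinc1 encodes antithrombin, the main plasma inhibitor of thrombin and factor X. It stood at 3116, 3379, 3512 and 3253 CPM in FSH livers 1 to 4, against 2956, 2704, 3042, 2756 and 2748 CPM in vehicle livers 1 to 5. The groups were set apart by a gap smaller than either group's spread, and the log2 fold change was 0.22 (SE 0.08, adjusted p = 0.363 in edgeR).

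The other inhibitors gave no such separation. Serpind1, which encodes heparin cofactor II, averaged 1059 ± 130.2 CPM with FSH and 1058 ± 46.4 CPM with vehicle, with a log2 fold change of 0.00 (SE 0.10). Serping1, the C1 inhibitor that also blocks plasma kallikrein and factor XII, had 0.09 (SE 0.13), and −0.03 without FSH replicate 3, where it was highest at 1299 CPM. Serpina5, the protein C inhibitor, was low, at 3.38 to 7.26 CPM in FSH livers and 3.14 to 7.18 CPM in vehicle livers. Serpina10, which encodes the inhibitor that acts with protein Z, had 0 reads in each of the 4 FSH libraries, which allows up to 0.116 to 0.13 CPM per library (3 reads, counting error only), and 2 reads over the 5 vehicle libraries. The table also holds a gene described as an inhibitor of this kind, LOC100909524, chosen after its values were seen, at 17.7, 20.3, 16.9 and 14.002 CPM in FSH livers 1 to 4, against 16.9, 12.8, 13.003, 13.2 and 10.6 CPM in vehicle livers 1 to 5. Its log2 fold change was 0.37 (SE 0.14, adjusted p = 0.363 in edgeR), with overlapping groups. Reads of 2 similar genes cannot be told apart where the counting assigned them to 1, so the low count of Serpina10 is uncertain.

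The protein C system and tissue factor pathway inhibitors lay on both sides of 0, and no member had an unadjusted p under 0.05. Proc, which encodes protein C, had −0.03 (SE 0.07), its cofactor Pros1 had 0.06 (SE 0.09) and Proz, protein Z, had 0.09 (SE 0.09). Proc was steady, at 471 to 537 CPM in FSH livers and 495 to 557 CPM in vehicle livers. Thbd, which encodes thrombomodulin, the endothelial receptor that turns thrombin into an activator of protein C, had 0.30 (SE 0.17, adjusted p = 0.534 in edgeR). It stood at 7.27, 6.09, 10.8 and 8.56 CPM in FSH livers 1 to 4, against 6.18, 5.55, 7.77, 7.46 and 6.11 CPM in vehicle livers 1 to 5, and the value was 0.14 without FSH replicate 3. Tfpi had −0.13 (SE 0.10), at 7.79 to 9.13 CPM in FSH livers and 7.85 to 10.5 CPM in vehicle livers. Tfpi2 had −0.34 (SE 0.27) at under 1 CPM in every liver.

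Endothelial cells are the known source of Thbd, Tfpi and F8 in liver. Of 9 sinusoidal and vascular endothelial markers tested, 8 had a fold change above 0 with a median of 0.34. Their summed level ranged from 225 to 296 CPM in FSH livers and from 194 to 255 CPM in vehicle livers, and none of them was at 0. Its part in the values of Thbd, Tfpi and F8 was not tested.

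The plasmin system also gave small values. Plg, which encodes plasminogen, had 0.09 (SE 0.11), at 4260.4, 4556, 5050.03 and 5058 CPM in FSH livers from lowest to highest, and 3898 to 5058 CPM in vehicle livers. Its inhibitor Serpinf2, α2-antiplasmin, had −0.06 (SE 0.09), and Cpb2, the carboxypeptidase that protects fibrin from plasmin, had −0.02 (SE 0.08). The activators Plat (tissue type) and Plau (urokinase type) were low in whole liver, at 2.82 to 4.84 CPM and 5.11 to 7.60 CPM in FSH livers, against 3.14 to 7.02 CPM and 2.66 to 7.60 CPM in vehicle livers. Plat had a log2 fold change of −0.15 (SE 0.26) and Plau 0.15 (SE 0.25). Plaur, the urokinase receptor, was below 1.5 CPM in every liver and had 0.27 (SE 0.42), which was −0.30 without FSH replicate 3. A2m, a broad protease inhibitor that in the rat is an acute phase protein, was listed at 0, 0.081, 0.27 and 0.13 CPM in FSH livers 1 to 4, against 0, 0.036, 0.071, 0.039 and 0 CPM in vehicle livers 1 to 5, and was too low to test.

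The members varied between animals apart from treatment. The coefficient of variation among vehicle livers had a median of 11.6% over the 34 tested genes and was highest for F3, at 62.7%. Among FSH livers the median was 11.5%, with the highest value, 64.8%, for Plaur. F3 had 11 to 50 reads per vehicle liver and Plaur 10 to 38 per FSH liver, so counting error adds to both values. Among the 25 tested members averaging at least 50 CPM, the highest value in vehicle livers was 19.0%, while Kng1 reached 54.9% in FSH livers. FSH liver 3 held the highest value of the 9 livers in 8 of the 34 genes and the lowest in 5, and vehicle liver 2 held the lowest in 12 and the highest in 1. The 8 genes highest in FSH liver 3 were F5, Klkb1, Kng1, Pros1, Thbd, Serpinc1, Serping1 and Plaur. That liver also had the highest summed level of Kupffer cell and macrophage markers among FSH livers, 526 CPM against 357 to 379 CPM in the other three, within the range of vehicle livers, 194 to 590 CPM. Its summed erythroid markers were the highest of all, 490.1 CPM, against 121 to 252 CPM in the other FSH livers and 75.9 to 157 CPM in vehicle livers. The part of these cells in the values of FSH liver 3 was not tested.

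**Figure D4:**
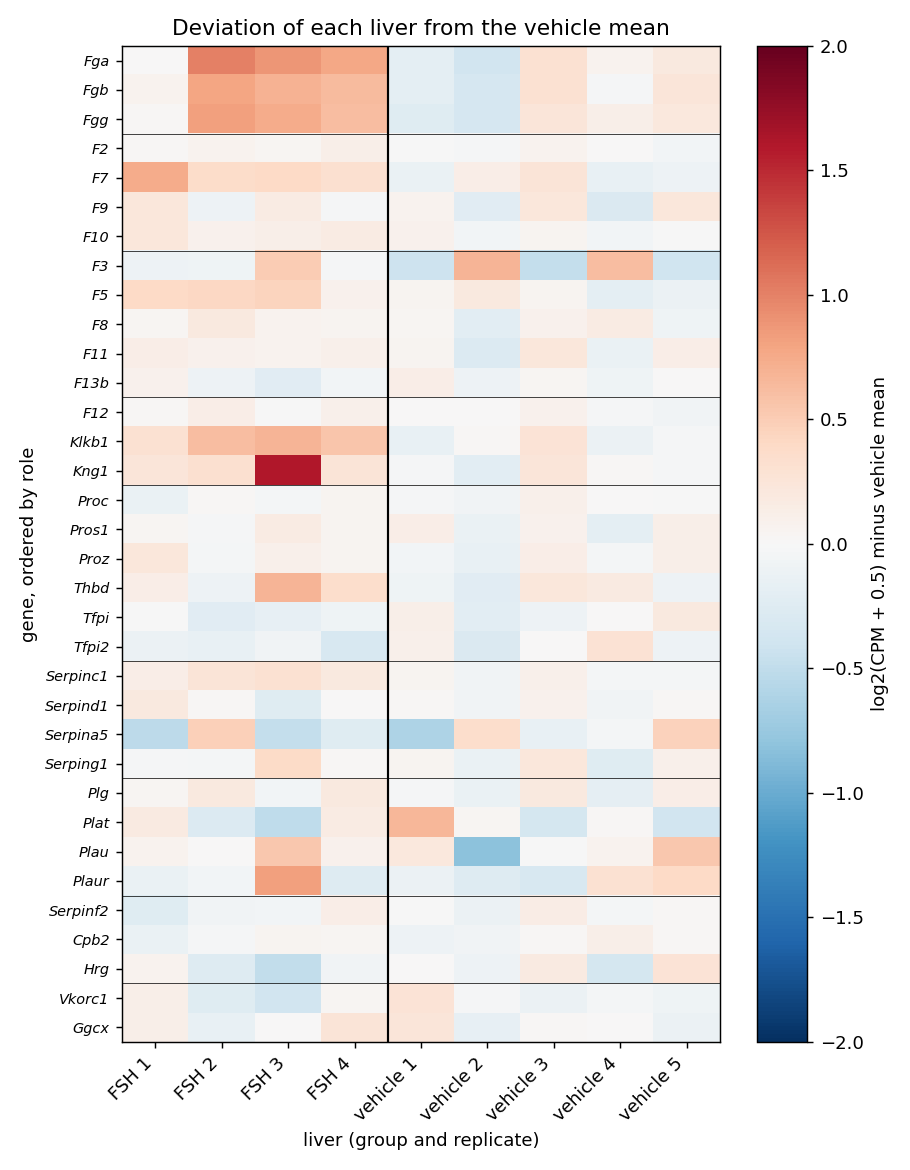
Deviation of each liver from the vehicle mean, as log2(CPM + 0.5), for the 34 tested genes (rows, ordered by role) in 4 FSH livers (left) and 5 vehicle livers (right of the line); red is above the vehicle mean and blue below. FSH livers 2 to 4 are red across the fibrinogen rows, FSH liver 1 is near 0 there, and Kng1 in FSH liver 3 has the largest deviation, 1.61.

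Other genes of haemostasis were read from a further list of 28, of which 20 were tested, 10 above and 10 below 0, with a median log2 fold change of 0.00 and no gene past the threshold. Gas6 and Asgr1 were among the genes with the smallest p-values. Gas6, a vitamin K-dependent ligand related to protein S, stood at 222, 237, 351 and 183 CPM in FSH livers 1 to 4, against 136, 131, 146, 173 and 176 CPM in vehicle livers 1 to 5, without overlap. Its log2 fold change was 0.70 (SE 0.17, adjusted p = 0.219 in edgeR and 0.0175 in DESeq2). Asgr1, a subunit of the hepatocyte receptor that removes desialylated glycoproteins, had 0.26 (SE 0.10, adjusted p = 0.363 in edgeR).

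A list of 14 hepatic transcription factors and interleukin-6 signalling genes had 12 members above 0 and 2 below, with a median of 0.25 and none past the threshold. Il6st, the signalling subunit of the interleukin-6 receptor, averaged 81.5 ± 11.3 CPM with FSH (SD, n = 4) and 54.6 ± 15.4 CPM with vehicle (SD, n = 5), a log2 fold change of 0.58 (SE 0.18, adjusted p = 0.307 in edgeR). Vehicle liver 3, at 79.2 CPM, lay above FSH livers 1 and 2, at 73.9 and 71.1 CPM, so the groups overlapped. Socs3, a feedback inhibitor induced by interleukin-6, stood at 6.47, 14.8, 10.4 and 7.04 CPM in FSH livers 1 to 4, against 8.07, 2.30, 5.62, 5.60 and 3.40 CPM in vehicle livers 1 to 5. FSH livers 2 and 3 were the 2 highest, vehicle liver 1 lay above FSH livers 1 and 4, so the groups overlapped, and the log2 fold change was 0.96 (SE 0.35, adjusted p = 0.353 in edgeR). Onecut1, the factor HNF6, had 1.27 (SE 0.43, adjusted p = 0.333 in edgeR), with FSH liver 2 at 3.61 CPM, inside the vehicle range of 2.09 to 6.75 CPM, and the other FSH livers at 12.7 to 15.5 CPM.

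Platelets carry some of these proteins too. Of the 12 platelet and megakaryocyte markers read, 3 were tested, all above 0, and Gp5 was at 0 in all libraries, with a median of 0.25 and a summed level of 25.4 to 28.5 CPM in FSH livers and 21.1 to 25.9 CPM in vehicle livers. Cholangiocyte markers had 1 of 4 above 0 (median −0.54, summed 8.29 to 15.9 CPM in FSH livers and 9.82 to 17.97 CPM in vehicle livers) and stellate cell and fibroblast markers 1 of 7 (median −0.31, summed 129 to 163 CPM in FSH livers and 174 to 243 CPM in vehicle livers). Kupffer cell markers had 3 of 8 above 0 with a median of −0.04, and erythroid markers 4 of 4 with a median of 0.84. None of the members of these lists passed the threshold, and their part in the coagulation values was not tested. Each summed level is weighted toward its most abundant genes, such as Alb among the hepatocyte markers, and is no count of cells.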

How the data were processed

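Liver messenger RNA was sequenced in paired-end, stranded libraries, per the labels' protocols. The authors deposited raw read counts per gene. Per the submitters' processing notes, STAR, edgeR, DESeq2 and the build rn6 were used; versions, annotation and strand setting: not given in the sources used here. Here the counts were fitted in edgeR 4.0.16 (R 4.3.3) with a 2-sided quasi-likelihood test, TMM scaling and a low-count filter by group. p-values were adjusted by Benjamini-Hochberg over 11924 genes (99.96% of counts), with a threshold of 0.05. Standard errors of the log2 fold changes (FSH over vehicle) come from the F statistic. A single read is worth 0.0353 to 0.0532 CPM. As 8868 genes were at 0 throughout, 0 does not mean that a gene is not expressed.

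The members and lists were chosen with earlier results of these data known. Named genes were all 37 members and, from the 2 further gene lists, those past the threshold or else the 3 with the smallest p; 1 gene that this rule takes is not reported here. Promoters and gene order came from RefSeq, by symbol. Planned comparisons per coding length and of proteins were not made. Alternatives were DESeq2 1.42.0, limma 3.58.1 (voom with sample weights), a replicate block, other scalings and filters, 1 surrogate variable (sva 3.50.0), a threshold of 0.10 and leaving out each animal. The fit was tested on simulated counts. No 2 libraries of a group agreed within counting noise (chi-square per degree of freedom at least 27.1).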

Additional observations from a re-analysis of the deposited data

Results flagged for a closer look

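In 10 of 114 comparisons of a group's extreme animal with its nearest neighbour, the gap was large against the group's range. For normally distributed values about 1 in 20, or 5.7, would be expected. The comparisons share the same animals and some sums contain genes also compared singly, so 10 cannot be judged against 5.7. FSH replicate 3 held 7 of them, each as the highest of its group: Kng1 at 5222 CPM (next 2147), Serping1 at 1299 CPM (next 1009), Plau at 7.60 CPM (next 5.40), Plaur at 1.47 CPM (next 0.568), F3 at 1.54 CPM (next 0.908), the summed contact system at 6777 CPM (next 3784), which contains Kng1, and the summed Kupffer cell and macrophage markers at 526 CPM (next 379). In FSH replicate 4, F5 was lowest at 157 CPM (next 195). In the vehicle group Vkorc1 was highest in replicate 1 at 236 CPM (next 191), and with it the summed vitamin K cycle enzymes at 349 CPM (next 286).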

How the results depend on the processing

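The count of members past the threshold of 0.05 was 0 in every edgeR and limma fit, including the 9 fits that each left out 1 animal. At a false discovery rate of 0.10, applied to the main fit only, that count was also 0. Without vehicle replicate 3, Klkb1 had an adjusted p of 0.0936 in edgeR. In DESeq2 the count was 2, where F7 (0.45, DESeq2 adjusted p = 0.0443) and Klkb1 (0.54) were called, as was Gas6 (0.70). Over all genes 4 passed, against 184 in DESeq2, 2 with 1 surrogate variable, 12 at a false discovery rate of 0.10, and 0 to 4 on leaving out each animal (0 without FSH replicate 1, FSH replicate 3, vehicle replicate 1 or vehicle replicate 4). Members at an unadjusted p under 0.05 numbered 8, and 7 to 9 in the other fits. Members above 0 numbered 23, and 20 to 24 in the other fits. The members' median log2 fold change of 0.07 ranged from 0.04, without vehicle replicate 2, to 0.11, without vehicle replicate 3. With the replicate block 0 members and 5 genes passed. Same-numbered animals did not deviate together (correlations −0.04 to 0.04, against −0.15 to 0.12 for other pairs). The labels state no pairing, and so few correlations cannot exclude a shared batch. Some log2 fold changes smaller in size than their SE changed sign. Serpind1 was −0.0030 in DESeq2 and with DESeq2-type size factors, −0.016 in limma-voom, −0.019 with total counts alone, −0.00030 without a filter and −0.0053 with at least 1 CPM in 4 samples; F3 was 0.17 in limma-voom; Plaur was −0.046 with 1 surrogate variable. Leaving out each animal gave ranges across 0 for F9 (−0.020 to 0.11), F3 (−0.29 to 0.26), Proc (−0.052 to 0.0096), Serpind1 (−0.069 to 0.072), Serping1 (−0.028 to 0.15), Plat (−0.26 to 0.075), Plau (−0.029 to 0.31), Plaur (−0.30 to 0.45), Cpb2 (−0.045 to 0.022) and Ggcx (−0.013 to 0.12). The causes of these changes were not tested. Below about 1 CPM (F3, Plaur, Tfpi2) counting error limits the values.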

Other observations

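Fgl1, which encodes a liver-secreted relative of fibrinogen and was chosen after its values were seen, varied more between animals than the fibrinogen chains. It stood at 95.3, 251, 1391 and 411 CPM in FSH livers 1 to 4, against 240.1, 214, 649.9, 269 and 295 CPM in vehicle livers 1 to 5. FSH liver 3, which was also highest in Kng1, had the highest value, and FSH liver 1 the lowest, below every vehicle liver. The log2 fold change was 0.69 (SE 0.64, adjusted p = 0.724 in edgeR).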
